A study of Mus musculus with 14 samples.

Results

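Lipopolysaccharide (LPS), a component of the outer membrane of Gram-negative bacteria, was given for 6 h to mouse macrophages that had met no earlier stimulus, and the transcripts of those cells were set against macrophages that received the buffer PBS alone. The comparison rests on 3 of the 14 libraries of the series, 2 with LPS and 1 with PBS, chosen by their labels. All cells were bone marrow-derived macrophages, grown from the marrow of male C57Bl6/J mice aged 6 to 12 weeks in medium with L929-conditioned medium as the source of the growth factor CSF-1. The groups used here were PBS for 24 h and then LPS for 6 h (2 libraries), PBS for 24 h and then LPS for 2 h (2 libraries), 24 h of Poly I:C at 100 ng/mL followed by LPS for 6 h (2 libraries), Poly I:C for 24 h and then PBS for 6 h (2 libraries), PBS and then PBS for 6 h (1 library), and PBS and then PBS for 2 h (1 library). The cells were washed between the stimuli. The dose of LPS as second stimulus is not stated in the labels. The labels do not say whether replicates are separate mice, cultures or preparations. The p-values therefore reflect the scatter among the 14 libraries alone, and that scatter may be technical.

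LPS is recognised by Toll-like receptor 4 (TLR4) together with CD14 and MD-2. The receptor signals through the adaptor MyD88, which activates NF-kB and MAP kinases within minutes, and through the adaptor TRIF, which activates IRF3 and the production of interferon beta. Interferon beta then acts on the macrophages themselves through STAT factors and IRF9, so that a set of interferon-stimulated genes follows the first inflammatory genes.

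Expression was deposited as FPKM, the number of fragments relative to transcript length and library size, in a table of 39721 entries, of which 11977 were tested, those with a gene name that reached 1 FPKM in 2 or more libraries. Fold changes are log2 differences of log2(FPKM + 1), which understates the change of weakly expressed genes, and are given ± SE from a limma model of all 14 libraries. A gene is said to have risen or fallen where its Benjamini-Hochberg adjusted p over all 11977 entries was under 0.05. With 1 PBS library at 6 h, the spread of the control comes from the other groups, and the PBS library of 2 h, which takes no part in the fold change, shows how far 2 PBS libraries lay apart. The 2 LPS libraries differed by more than 2-fold in 1.04% of entries, the 2 PBS libraries in 3.00%, and the mean of the LPS libraries differed from the PBS library of 6 h in 26.0%. FPKM over all entries summed to 718190 and 756540 in the LPS libraries and 474480 in the PBS library, and 1 fragment was worth 2.25 and 1.99 times as much FPKM in the LPS libraries as in the PBS library. A gene silent after PBS entered the test only where other libraries expressed it, so counts of a list describe its tested members and not all those listed. These are bulk RNA values, in which fewer cells of a type and less RNA per cell cannot be told apart.

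Markers of macrophages were expressed in the LPS and PBS libraries compared at 6 h. Lyz2, which encodes lysozyme, had 10930.0 and 11773 FPKM in the LPS libraries and 14798 FPKM in the PBS library. Cd68, a lysosomal glycoprotein of macrophages, had 1177 and 1353 FPKM after LPS and 1267 FPKM after PBS, and neither passed the test. Of the 12 macrophage markers, 6 rose, 2 fell (Csf1r by 0.46 and Sirpa by 0.49 on the log2 scale) and 4 did not pass the test. With either LPS library left out, 0 of the 12 were lower. The 12 neutrophil markers summed to 3.60 and 2.86 FPKM in the LPS libraries and 3.27 FPKM in the PBS library, and the 8 B cell, 10 T and NK cell, 8 mast cell and 8 erythroid markers, as far as they had entries of their own, to at most 2.79 FPKM in an LPS library. Fibroblast and stromal markers were uneven: those of the 10 genes that had an entry of their own summed to 90.1 and 34.6 FPKM in the LPS libraries, against 28.4 FPKM in the PBS library of 6 h and 30.7 FPKM in that of 2 h. The highest sum was that of LPS library 1. There were 26.3 and 9.55 FPKM of the collagen gene Col1a1 in LPS libraries 1 and 2, against 7.80 FPKM after PBS. The genes were above 0 in every library but for Thy1, at 0 in LPS library 2, and Lum, at 0 in the PBS library of 2 h. Of the 7 stromal genes tested, Fbn1 rose and the others did not pass, and the part of stromal RNA in other results was not tested. Of 8 dendritic cell markers 3 were tested, and Bst2, which is also interferon-stimulated, and Xcr1 rose. Xcr1, a chemokine receptor, had 3.04 and 3.78 FPKM after LPS and 0.0335 FPKM after PBS.

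After 6 h of LPS, 2738 entries (22.9%) were higher and 2464 (20.6%) lower than after PBS, so 43.4% of the tested transcriptome changed. At least a 2-fold difference was reached by 1711 higher entries (14.3%) and 1325 lower entries (11.1%), and an 8-fold difference by 332 higher and 37 lower entries. The median over all 11977 entries was 0.02. Both LPS libraries lay above both PBS libraries in 38.4% of entries and below both in 36.7%, so a gap between the groups was common. Of the entries called, 88 higher and 65 lower ones overlapped with the PBS library of 2 h. The largest increases were led by chemokine, acute-phase and interferon-stimulated genes: Ccl5, Saa3, Cxcl10, Rsad2, Irg1, Gbp2, Il1b, Gbp5, Cmpk2, Mx1, Ifi205 and Ifit2 were the 12 largest among single-gene entries above 5 FPKM with both LPS libraries above both PBS libraries.

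**Figure D1:**
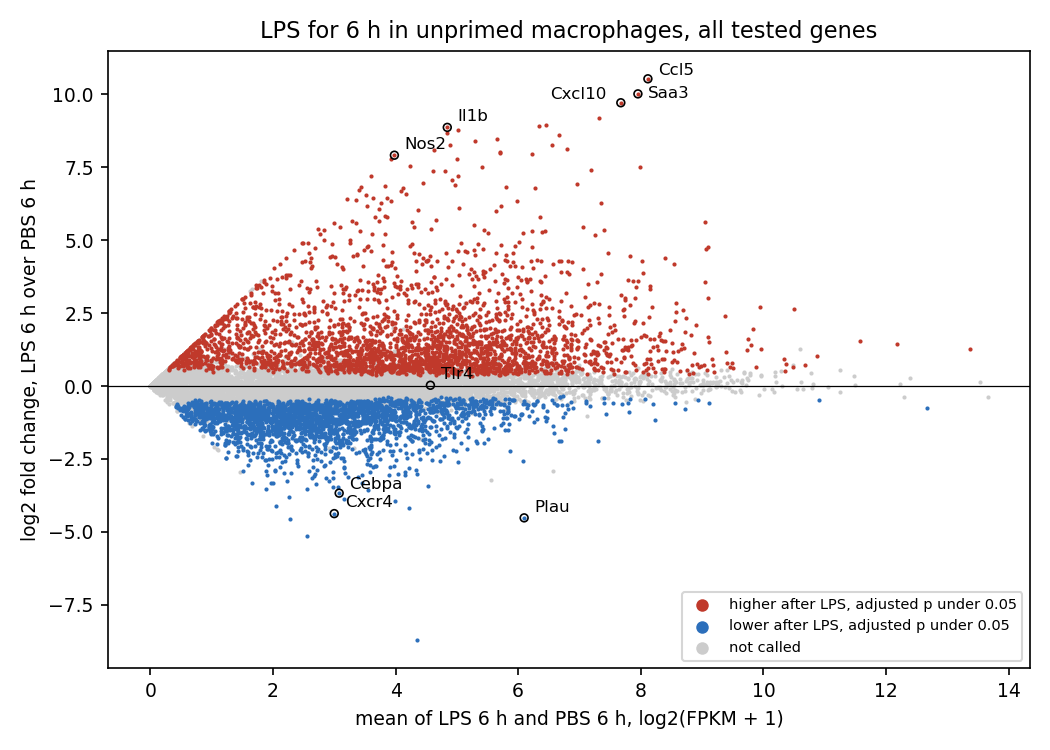
Log2 fold change of LPS over PBS at 6 h in unprimed macrophages (y axis) against mean log2(FPKM + 1) (x axis), 1 point per tested entry. Red entries were higher and blue entries lower at an adjusted p of 0.05. Of the higher entries 332 differed by at least 8-fold and of the lower ones 37, and the highest labelled points are Ccl5, Saa3 and Cxcl10.

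Of the inflammatory cytokines, the secreted proteins that start fever, vascular leakage and leukocyte activation, 28 were listed and 26 tested; 19 rose and none fell, with a median of 2.06. The median was 4.35 with a pseudocount of 0.1 in place of 1, and 3 members were lower with the PBS library of 2 h as control. Il1b, the precursor of interleukin-1 beta (chromosome 2, 129364562 to 129376162, the locus of the deposited entry on GRCm38), had 656 and 584 FPKM in the LPS libraries, against 0.330 FPKM in the PBS library of 6 h and 2.71 FPKM in that of 2 h. Both LPS libraries were far above both controls, and the log2 fold change was 8.87 ± 0.43 (adjusted p = 1.41e-07). Il1a, the second interleukin-1 gene, had 158 and 149 FPKM after LPS and 0.317 FPKM after PBS (6.87 ± 0.68, adjusted p = 2.13e-05). Tnf, the gene of tumour necrosis factor, was already expressed after PBS and changed less: it had 227 and 227 FPKM after LPS, against 30.3 and 46.6 FPKM in the PBS libraries of 6 h and 2 h (2.87 ± 0.58, adjusted p = 0.00258). Il6, a cytokine of the acute-phase response, had 28.1 and 35.4 FPKM after LPS and 0.0773 FPKM after PBS (4.92 ± 0.57, adjusted p = 6.27e-05).

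Further cytokines that were low after PBS rose. Il12b, the subunit shared by interleukins 12 and 23, had 39.8 and 21.9 FPKM after LPS and 0.0211 FPKM after PBS (4.90 ± 0.31). The anti-inflammatory Il10 had 73.9 and 97.0 FPKM after LPS and 1.34 FPKM after PBS (5.19 ± 0.38), and Il27, which acts on T cells, 85.2 and 135 FPKM after LPS and 0.632 FPKM after PBS (6.05 ± 0.46). Tnfsf10, the death ligand TRAIL, had 82.8 and 104 FPKM after LPS and 0.125 FPKM after PBS (6.38 ± 0.28). All 4 genes had both LPS libraries above both PBS libraries. The 7 cytokine genes that did not pass were Osm, Vegfa, Tgfb1, Il23a, Lif, Csf2 and Tnfsf9. Csf2 was listed at 0 in both PBS libraries and in 1 LPS library. Csf3, a granulocyte growth factor, rose to 2.19 and 1.70 FPKM after LPS and was listed at 0 in the PBS library of 6 h (adjusted p = 0.00108).

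Among the chemokines, which attract leukocytes, 26 were listed and 20 tested; 14 rose, Cxcl14 fell and the median was 3.53. Ccl5, which attracts T cells and monocytes (chromosome 11, 83525771 to 83536450), had 9700.3 and 11745 FPKM in the LPS libraries, against 6.21 FPKM in the PBS library of 6 h and 26.3 FPKM in that of 2 h. It was the largest increase of any single-gene entry named here (10.53 ± 0.31, adjusted p = 5.90e-09). The 3 ligands of CXCR3, which draw activated T cells and NK cells, all rose. Cxcl10 had 5144 and 6792 FPKM after LPS and 6.06 FPKM after PBS (9.71 ± 0.25, adjusted p = 2.38e-09). Cxcl11 had 188 and 269 FPKM after LPS and 0.0252 FPKM after PBS (7.79 ± 0.26), and Cxcl9 32.5 and 54.5 FPKM after LPS and 0.0262 FPKM after PBS (5.39 ± 0.30).

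Monocyte-attracting ligands of CCR2 started from a higher level. Ccl2 had 1902 and 1759.8 FPKM after LPS and 152 FPKM after PBS (3.58 ± 0.21, adjusted p = 4.72e-07), and Ccl12 1406 and 1460.4 FPKM after LPS and 17.6 FPKM after PBS (6.27 ± 0.26). Ccl3, a ligand of CCR1, had 1442 and 1638 FPKM after LPS and 72.1 FPKM after PBS (4.39 ± 0.58). A further entry that names Ccl3 and Ccl4 together had 3366 and 4065 FPKM after LPS and 74.3 FPKM after PBS, and its reads cannot be assigned to either gene. The neutrophil attractants that bind CXCR2 were low at this time. Cxcl2 had 30.9 and 28.7 FPKM after LPS and 6.81 FPKM after PBS, a difference that did not pass (1.98 ± 0.88, adjusted p = 0.096), and Cxcl1 1.12 and 0.712 FPKM after LPS and 0.135 FPKM after PBS (0.75 ± 0.41, adjusted p = 0.171). Cxcl14, the chemokine that fell, had 9.52 and 9.31 FPKM after LPS and 45.2 FPKM after PBS (-2.15 ± 0.19).

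**Figure D2:**
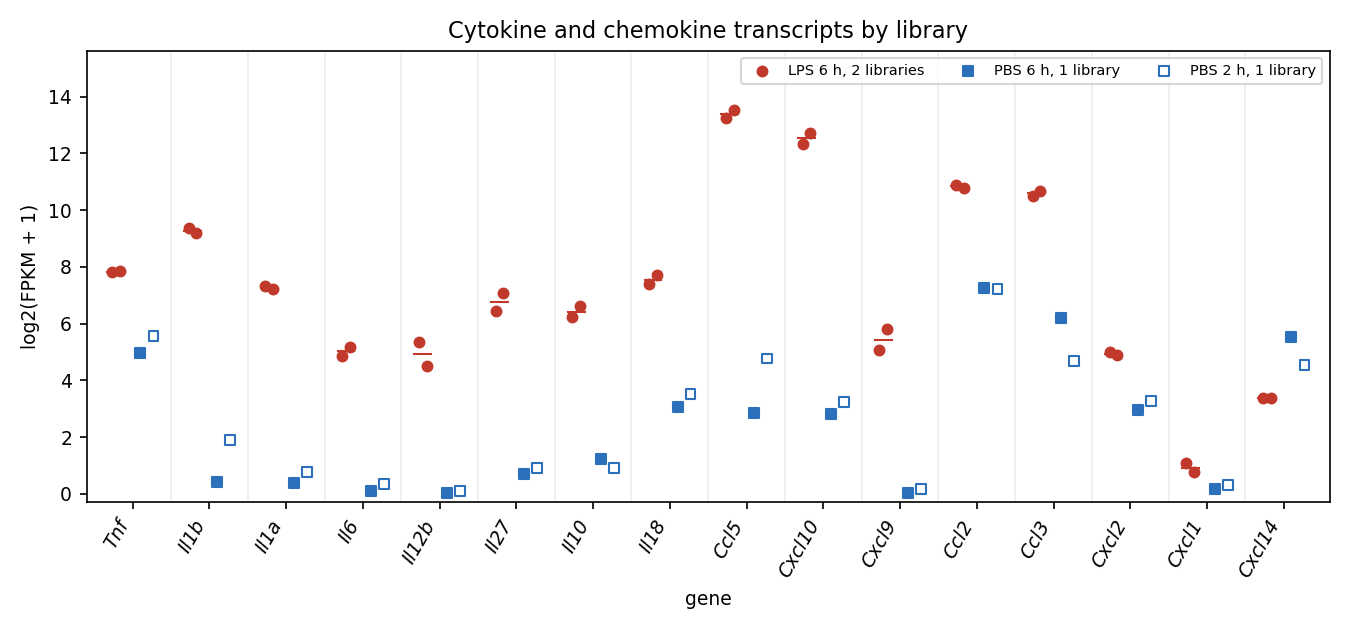
Expression as log2(FPKM + 1) (y axis) of cytokine and chemokine genes (x axis) in unprimed macrophages. Red circles are the 2 LPS libraries of 6 h with a line at their mean, the filled square is the PBS library of 6 h and the open square that of 2 h. Ccl5, Cxcl10 and Il1b stand far above both PBS libraries, Tnf and Ccl2 start from a higher level after PBS, Cxcl1 stays low in every library and Cxcl14 is below the PBS libraries.

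Interferon production and signalling followed the same direction. Of 18 genes listed, 14 were tested; 12 rose and Ifngr1 fell, with a median of 2.58. Ifnb1, the interferon beta gene itself, had 4.47 and 8.17 FPKM after LPS and was listed at 0 in the PBS library of 6 h and at 0.0812 FPKM in that of 2 h (adjusted p = 0.00052). Irf7, the factor that amplifies interferon production, had 1187 and 1601 FPKM after LPS and 10.3 FPKM after PBS (6.93 ± 0.31, adjusted p = 8.20e-08). Stat2, a transcription factor downstream of the interferon receptor, rose by 4.50 ± 0.24, and the kinase gene Jak2 by 4.30 ± 0.14. Irf3, whose protein is activated by TRIF signalling without new transcription, did not change detectably (0.02 ± 0.21, adjusted p = 0.964). Ifngr1, a chain of the receptor for interferon gamma, had 27.6 and 23.4 FPKM after LPS and 67.9 FPKM after PBS (-1.38 ± 0.17). Irf9 lies in an entry shared with Rnf31 and was not read alone.

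Of the 41 interferon-stimulated genes listed, 35 were tested and 35 rose, with a median of 5.30 and a smallest change of 2.33 for Lgals3bp. Rsad2, the antiviral enzyme viperin, had 3589 and 4116 FPKM after LPS, against 5.58 and 10.5 FPKM in the PBS libraries of 6 h and 2 h (9.19 ± 0.19, adjusted p = 9.32e-10). Isg15, a ubiquitin-like modifier, had 3075 and 3764 FPKM after LPS and 17.9 FPKM after PBS (7.49 ± 0.28). The transcript of Mx1, a GTPase gene, rose by 8.47 ± 0.28, and that of Ifit2, a member of a family that binds foreign RNA, by 8.25 ± 0.18. Each of these genes had both LPS libraries above both PBS libraries. The interferon-induced GTPases, which coat vacuoles of intracellular pathogens, were tested for 9 of 16 listed genes, and 7 rose with a median over the 9 of 6.26. Gbp2 had 1593 and 2023 FPKM after LPS and 2.69 FPKM after PBS (8.93 ± 0.21, adjusted p = 1.39e-09). Gbp5 had 526 and 639 FPKM after LPS and 0.427 FPKM after PBS (8.67 ± 0.19). Gbp2b and Tgtp1 did not pass, and as near-identical members of gene families their values are uncertain.

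The promoters of 4 strongly raised genes are shown as examples because the interferon-stimulated genes and GTPases moved together. All 4 hold the interferon motif marked below, which most of the listed interferon-stimulated genes lacked. Each is the 250 bases upstream of the transcription start in RefSeq (build GRCm38.p6), written 5′ to 3′ on the strand of the gene. Capitals mark matches on either strand to the core of the interferon-stimulated response element (GAAA, any 2 bases, GAAA), the sequence bound by IRF factors, and in Gbp5 also a match to the NF-kB site (GGG, any 2 bases, TTTCC).
Gbp2, chr3:142620413-142620662, plus strand: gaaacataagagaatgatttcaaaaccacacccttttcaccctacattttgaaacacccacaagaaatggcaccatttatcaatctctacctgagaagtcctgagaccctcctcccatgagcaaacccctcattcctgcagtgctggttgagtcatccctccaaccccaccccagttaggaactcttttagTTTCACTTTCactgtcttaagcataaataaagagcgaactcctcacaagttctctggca
Gbp5, chr3:142496684-142496933, plus strand: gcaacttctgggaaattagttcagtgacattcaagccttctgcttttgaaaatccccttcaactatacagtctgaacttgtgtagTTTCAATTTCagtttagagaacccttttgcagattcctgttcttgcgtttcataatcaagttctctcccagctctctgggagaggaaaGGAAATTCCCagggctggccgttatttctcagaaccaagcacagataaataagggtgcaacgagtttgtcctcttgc
Cxcl10, chr5:92348890-92349139, minus strand: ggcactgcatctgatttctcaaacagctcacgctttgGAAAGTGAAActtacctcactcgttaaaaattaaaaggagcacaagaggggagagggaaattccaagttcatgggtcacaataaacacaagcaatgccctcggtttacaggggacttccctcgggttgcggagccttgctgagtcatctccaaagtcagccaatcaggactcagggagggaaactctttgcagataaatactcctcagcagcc
Isg15, chr4:156200819-156201068, minus strand: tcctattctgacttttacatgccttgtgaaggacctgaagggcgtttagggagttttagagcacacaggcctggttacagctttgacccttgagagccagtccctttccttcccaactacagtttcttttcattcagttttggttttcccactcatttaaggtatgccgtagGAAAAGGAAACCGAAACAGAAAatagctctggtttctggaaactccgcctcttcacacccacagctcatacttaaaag
The match in Gbp2 ran from base -59 to -50 and that in Cxcl10 from -213 to -204, counted from the start site. Gbp5 held the interferon motif at -165 to -156 and the NF-kB motif at -77 to -68. Isg15 held 3 overlapping matches between -78 and -57. A promoter was found for 8220 of 10946 single-gene symbols, with 10495 promoter windows in all. A gene was counted where any of its windows matched, so genes with several windows had more room for a match. The interferon motif was found for 277 of the 8220 genes (3.37%). It was present in 91 of 1173 genes that rose at least 2-fold (7.76%), in 39 of 218 that rose at least 8-fold (17.9%) and in 20 of 962 that fell at least 2-fold (2.08%). Of the listed genes with a promoter, 8 of 8 GTPases and 8 of 26 interferon-stimulated genes (30.8%) held it. So did 2 of 10 ribosomal protein genes (20%), a list in which no gene passed the test. The NF-kB motif was present for 149 of 8220 genes (1.81%), 4 of 15 chemokine genes (26.7%) and 5 of 22 genes of feedback inhibitors (22.7%). It was present for 2 of 19 cytokine genes (10.5%), 1 of 20 effector genes (5%) and 0 of 26 interferon-stimulated genes. Of genes that rose at least 8-fold, 11 of 218 held it (5.05%), and of those that fell at least 2-fold, 8 of 962 (0.832%). A match of letters is a description and was not tested as a binding site.

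Genes of MHC class I presentation, which displays peptides from within the cell to CD8 T cells, were tested for 12 of 18 listed members, and 12 rose with a median of 3.28. Nlrc5, the transactivator of class I genes, had 81.7 and 119 FPKM after LPS and 3.81 FPKM after PBS (4.37 ± 0.27). Tap2, a subunit of the peptide transporter, rose by 3.84 ± 0.22 and Psmb9, a subunit of the immunoproteasome, by 3.64 ± 0.25. H2-K1, a classical heavy chain, was abundant in both groups, with 1324 and 1694 FPKM after LPS and 495 FPKM after PBS (1.60 ± 0.26). In the list of MHC class II and costimulatory genes 15 of 16 were tested and 11 rose. The costimulatory genes Cd40 and Cd274 changed most: Cd40, a receptor for help from T cells, had 765 and 911 FPKM after LPS and 2.23 FPKM after PBS (8.02 ± 0.18), Cd274, the inhibitory ligand PD-L1, rose by 6.11 ± 0.19, and Cd86 by 3.31 ± 0.20. The class II chain H2-Aa had 3.56 and 5.76 FPKM after LPS and 2.17 FPKM after PBS, a small rise from a low level (0.81 ± 0.22, adjusted p = 0.0145). The class II transactivator Ciita had 0.109 and 0.0994 FPKM after LPS and was listed at 0 in the PBS library of 6 h, and did not pass.

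Within the TLR4 pathway the receptor did not pass the test, while several of its adaptors and kinases rose. Tlr4 had 26.1 and 20.1 FPKM after LPS, against 22.5 and 14.02 FPKM in the PBS libraries of 6 h and 2 h, so the groups overlapped (0.03 ± 0.29, adjusted p = 0.96). Its co-receptor gene Cd14 had 946 and 1042 FPKM after LPS and 231 FPKM after PBS (2.10 ± 0.21, adjusted p = 2.28e-05). Of 23 listed members of the pathway, 19 were tested, 12 rose and none fell, with a median of 1.28. Myd88 rose by 3.04 ± 0.17, Map3k8, a kinase upstream of ERK, by 3.40 ± 0.26, Ikbke, a kinase of the interferon arm, by 2.66 ± 0.28, and Irak2 by 2.26 ± 0.14. Traf3, Traf6, Map3k7, Irak4, Chuk and Ikbkg, like Tlr4, did not pass. Of the other Toll-like receptors and their chaperone, 9 of 10 were tested and 8 rose. Tlr3, the receptor for double-stranded RNA, had 88.7 and 111 FPKM after LPS and 2.59 FPKM after PBS (4.80 ± 0.19), and Tlr2, the receptor for bacterial lipoproteins, 174 and 172 FPKM after LPS and 37.7 FPKM after PBS (2.17 ± 0.18). Tlr13, which senses bacterial ribosomal RNA in mice, fell (-0.87 ± 0.28).

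The 4 NF-kB subunit genes tested all rose, Nfkb2 by 2.52 ± 0.22, Nfkb1 by 2.14 ± 0.15, Relb by 1.56 ± 0.23 and Rela by 0.56 ± 0.16. The Rela values of the LPS libraries, 29.0 and 35.8 FPKM, overlapped with the PBS libraries, 21.5 FPKM at 6 h and 31.2 FPKM at 2 h. Rel shares its entry with another gene. Feedback inhibitors, the proteins that limit TLR and cytokine signalling, rose in 22 of 26 tested members of 28 listed, with a median of 3.23. Socs3, which blocks signalling of gp130 receptors, had 459 and 571 FPKM after LPS and 0.691 FPKM after PBS (8.25 ± 0.64, adjusted p = 3.95e-06). Nfkbia, the NF-kB inhibitor IkB alpha, had 510.5 and 554 FPKM after LPS and 44.3 FPKM after PBS (3.56 ± 0.52), and Tnfaip3, the ubiquitin-editing enzyme A20, 96.4 and 121 FPKM after LPS and 12.9 FPKM after PBS (2.97 ± 0.51). Usp18 and Socs1, inhibitors of interferon receptor signalling, rose by 6.35 ± 0.32 and 5.59 ± 0.50. The phosphatase gene Dusp4 fell, with 6.87 and 6.16 FPKM after LPS and 20.02 FPKM after PBS (-1.49 ± 0.28), while Dusp2 rose by 5.78 ± 0.38.

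Inflammatory and antimicrobial effectors rose in 24 of 29 tested members of 32 listed, with a median of 3.27. Saa3, a serum amyloid A protein made by macrophages in mice (chromosome 7, 46711998 to 46715676), had 8838 and 7185 FPKM after LPS, against 6.71 and 18.3 FPKM in the PBS libraries of 6 h and 2 h (10.01 ± 0.54, adjusted p = 2.89e-07). Irg1 (Acod1), the enzyme that makes itaconate, had 1839.7 and 2044 FPKM after LPS and 2.95 FPKM after PBS (8.94 ± 0.21). Nos2, inducible nitric oxide synthase, had 213 and 279 FPKM after LPS and 0.0178 FPKM after PBS (7.91 ± 0.36). In these 3 genes both LPS libraries lay above both PBS libraries. Lcn2, which binds bacterial siderophores, had 159 and 133 FPKM after LPS and was listed at 0 in the PBS library of 6 h. Ptgs2, the inducible cyclooxygenase, had 24.3 and 27.3 FPKM after LPS and 0.397 FPKM after PBS (4.26 ± 0.43). Arg1, an arginase of alternatively activated macrophages, had 4.87 and 4.62 FPKM after LPS and 1.01 FPKM after PBS (1.51 ± 0.18, adjusted p = 6.85e-05).

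One effector fell, and it was the largest decrease among single-gene entries above 5 FPKM with both LPS libraries below both PBS libraries. Plau, the urokinase plasminogen activator (chromosome 14, 20836662 to 20843388), had 14.7 and 12.0 FPKM after LPS, against 327 and 456 FPKM in the PBS libraries of 6 h and 2 h (-4.52 ± 0.27, adjusted p = 6.37e-07).

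Genes of the inflammasome and of cell death were tested for 18 of 22 listed members; 15 rose and none fell, with a median of 2.31. Casp4, known in mice as caspase-11, which binds LPS in the cytosol, rose by 4.84 ± 0.18. Mlkl, the executor of necroptosis, rose by 4.62 ± 0.17 and Fas, a death receptor, by 3.59 ± 0.24. Of the Fc gamma receptors, which bind IgG, 5 of 6 were tested and 4 rose: Fcgr4 had 380.4 and 455 FPKM after LPS and 9.98 FPKM after PBS (5.25 ± 0.15), and Fcgr1 801 and 932 FPKM after LPS and 35.5 FPKM after PBS (4.57 ± 0.19). Of the C-type lectins, 11 of 12 were tested, 7 rose and Clec5a fell. Cd69, an early activation marker of lymphocytes, rose by 7.37 ± 0.26 and Clec4e, the receptor Mincle for fungal and mycobacterial glycolipids, by 3.90 ± 0.13. Clec5a was called lower (-0.49 ± 0.18), but its direction turned with the PBS library of 2 h as control (0.50) and with both PBS libraries as the control group (0.0043).

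Chemotactic receptors moved in both directions, with 8 higher and 4 lower among 13 tested of 16 listed. Among all tested entries 22.9% were higher and 20.6% lower. With the PBS library of 2 h as control, 6 receptors were higher and 3 lower, and the median was 0.33 and not 1.30. Fpr1, the receptor for bacterial formyl peptides, had 61.9 and 46.5 FPKM after LPS and 0.687 FPKM after PBS (5.02 ± 0.21), and Ccrl2, an atypical receptor that presents chemerin, rose by 4.64 ± 0.20. Cxcr4, the receptor for Cxcl12, had 0.755 and 0.759 FPKM after LPS, against 35.4 and 139 FPKM in the PBS libraries of 6 h and 2 h (-4.37 ± 0.25, adjusted p = 4.13e-07). The LPS libraries were far below both controls, although the controls differed from each other. S1pr1, a receptor for sphingosine-1-phosphate, fell (log2 change -2.53 ± 0.22), as did C5ar1, the receptor for complement C5a (-1.89 ± 0.16). Cx3cr1, the fractalkine receptor, had 25.8 and 14.3 FPKM after LPS and 51.9 FPKM after PBS (-1.39 ± 0.28), but the PBS library of 2 h, with 21.5 FPKM, lay between the LPS libraries.

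**Figure D3:**
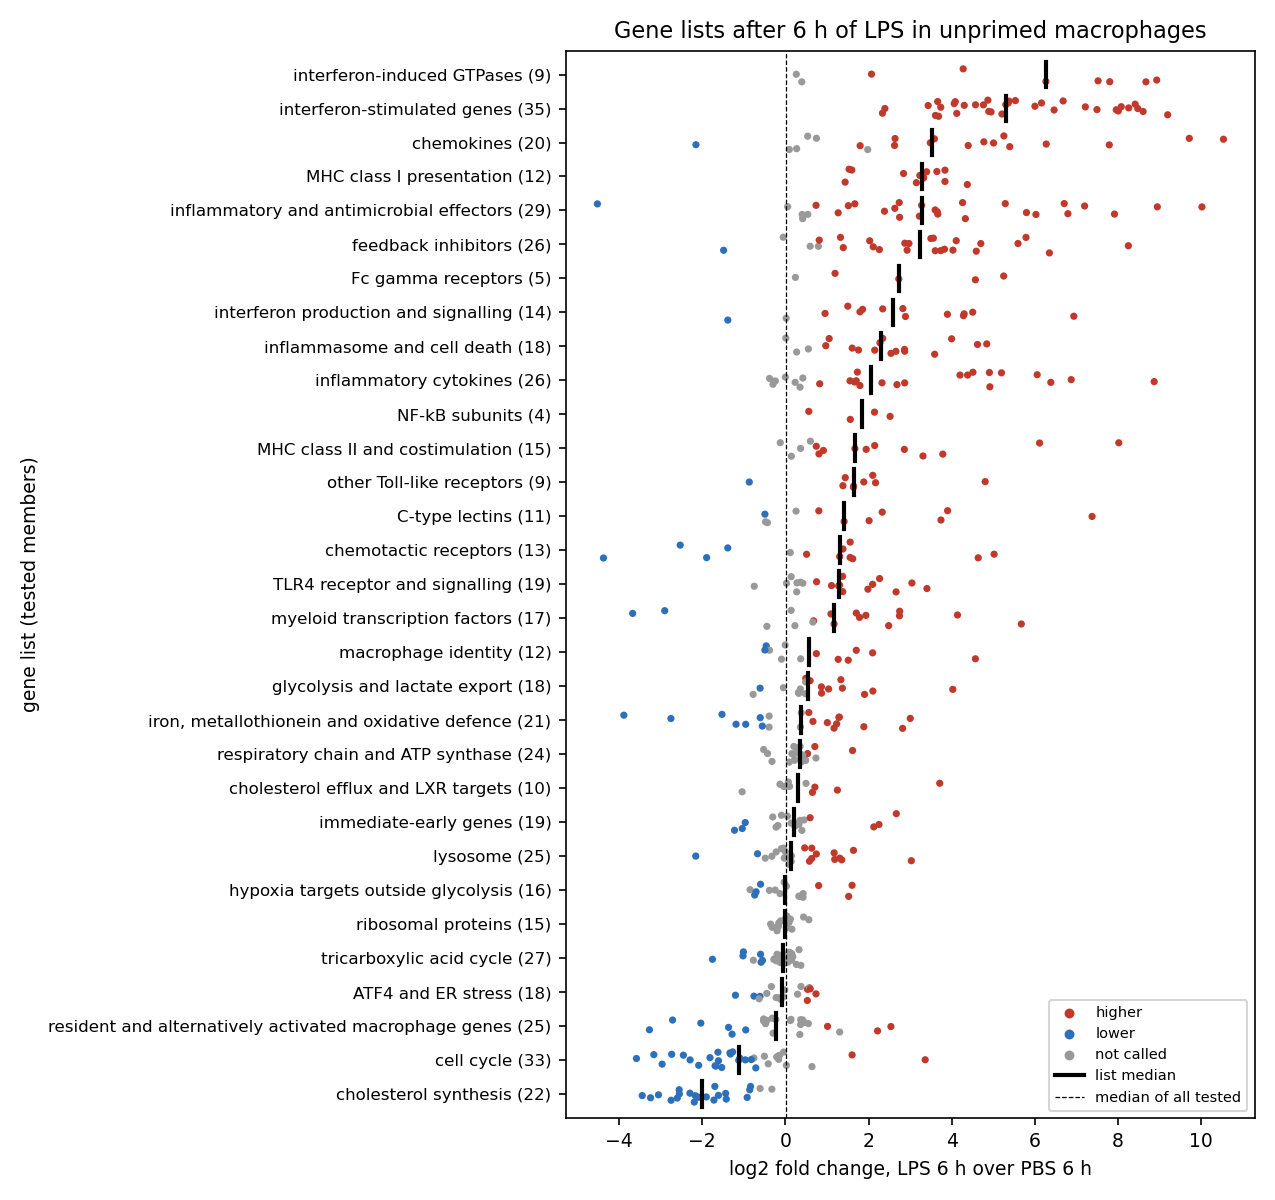
Log2 fold change of LPS over PBS at 6 h (x axis) for the tested members of each gene list (y axis, number tested in brackets), 1 point per gene. Red points were higher, blue points lower and grey points not called at an adjusted p of 0.05, and each bar is the median of its list. The interferon-stimulated genes lie above 0 for 35 of 35 tested members and the cholesterol synthesis genes below 0 for the 20 that fell, while the ribosomal protein genes lie near 0.

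The sterol synthesis genes fell together. The pathway makes cholesterol from acetyl-CoA and is switched on by the factor SREBP2 when membrane sterols are low. Of 25 genes listed, 22 were tested; 20 fell and none rose, with a median of -1.996. Sqle, squalene epoxidase, had 6.26 and 5.74 FPKM after LPS, against 75.1 and 52.0 FPKM in the PBS libraries of 6 h and 2 h (-3.44 ± 0.16, adjusted p = 1.14e-07). Hmgcs1, the synthase of the first committed intermediate HMG-CoA, had 9.48 and 8.52 FPKM after LPS and 57.5 FPKM after PBS (-2.55 ± 0.16, adjusted p = 7.55e-07). Dhcr7, which acts at the last step, had a change of -3.05 ± 0.27, and Stard4, a sterol carrier, of -3.24 ± 0.31. The 2 tested members that did not pass, Fdft1 and Ebp, had changes of -0.61 and -0.33.

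Of the genes of cholesterol efflux, 10 of 14 were tested and 4 rose. Abcg1, which exports sterols to HDL, had 43.3 and 55.8 FPKM after LPS and 2.83 FPKM after PBS (3.71 ± 0.16), and Abca1, which exports them to lipid-poor apolipoprotein A-I, 56.5 and 39.2 FPKM after LPS and 19.2 FPKM after PBS (1.25 ± 0.40, adjusted p = 0.0267). This count fell to 2 with the PBS library of 2 h as control or without the second LPS library, and to 1 higher and 1 lower in the unprimed libraries alone. Fasn, fatty acid synthase, was among the 12 largest decreases, with 1.91 and 0.949 FPKM after LPS and 25.2 FPKM after PBS (-3.46 ± 0.88, adjusted p = 0.00888).

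Cell cycle genes fell in 21 of 33 tested members of 37 listed, with a median of -1.12, and 2 rose. The 4 largest decreases were of genes of DNA replication. Mcm2, a subunit of the replicative helicase, had 2.42 and 2.34 FPKM after LPS, against 39.5 and 18.7 FPKM in the PBS libraries of 6 h and 2 h (-3.58 ± 0.18, adjusted p = 2.14e-07). The subunits Mcm3 and Mcm4 changed by -2.96 ± 0.15 and -2.73 ± 0.17, and Rrm2, a subunit of ribonucleotide reductase, by -3.16 ± 0.25. Mki67, the proliferation antigen Ki-67, had 8.46 and 6.37 FPKM after LPS and 17.2 FPKM after PBS (-1.12 ± 0.24, adjusted p = 0.00336). The genes that rose were Ccnd2, a D-type cyclin, with 55.6 and 66.4 FPKM after LPS and 5.01 FPKM after PBS (3.36 ± 0.18), and the cyclin-dependent kinase inhibitor Cdkn1a (1.60 ± 0.13). Ccnd1, another D-type cyclin, had 127 and 171 FPKM after LPS and 152 FPKM after PBS and did not pass (-0.04 ± 0.29, adjusted p = 0.926).

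**Figure D4:**
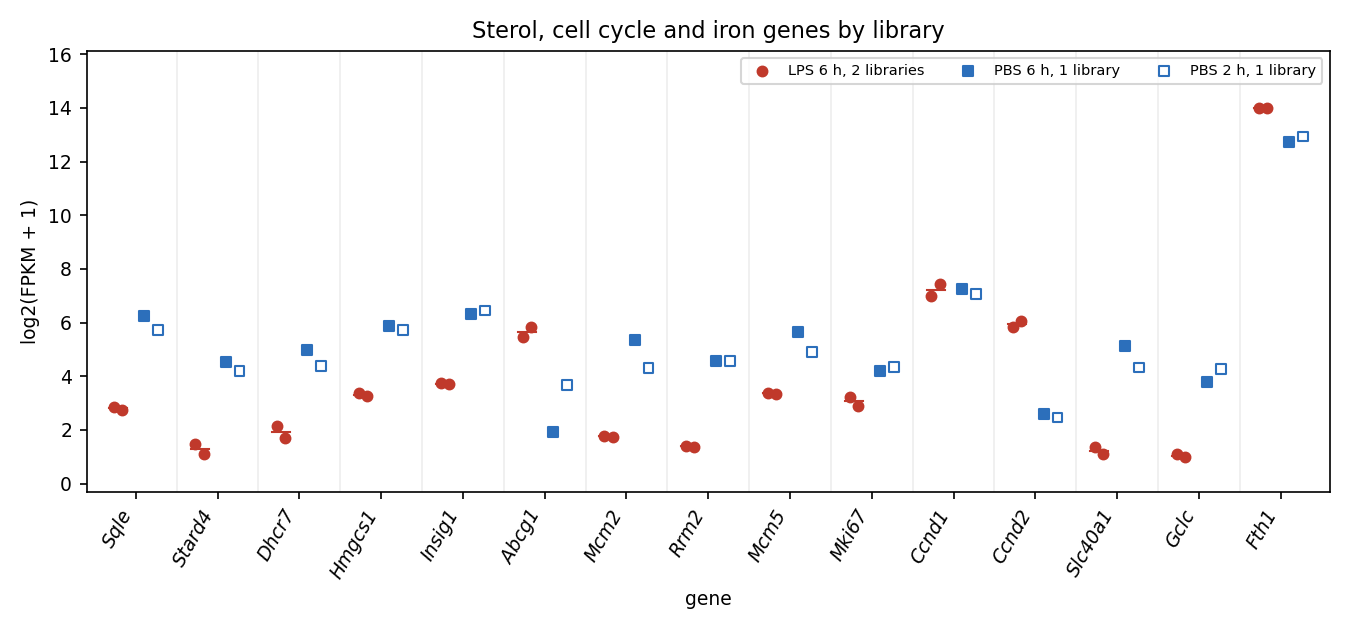
Expression as log2(FPKM + 1) (y axis) of sterol, cell cycle and iron genes (x axis) in unprimed macrophages. Red circles are the 2 LPS libraries of 6 h with a line at their mean, the filled square is the PBS library of 6 h and the open square that of 2 h. Both LPS libraries lie below both PBS libraries for Sqle, Hmgcs1, Mcm2, Mki67 and Slc40a1, above both for Abcg1 and Ccnd2, and on either side of them for Ccnd1.

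Genes of iron handling and oxidative defence went both ways, with 10 higher and 7 lower among 21 tested of 24 listed. Among all tested entries 22.9% were higher and 20.6% lower. Slc40a1, the iron exporter ferroportin, had 1.56 and 1.14 FPKM after LPS and 33.5 FPKM after PBS (-3.88 ± 0.22), and Gclc, the catalytic subunit that starts glutathione synthesis, 1.14 and 0.966 FPKM after LPS and 12.8 FPKM after PBS (-2.75 ± 0.19). The transferrin receptor gene Tfrc changed by -1.52 ± 0.29. Among those that rose were Mt2, a metallothionein (2.82 ± 0.55), and Slc39a14, a zinc and iron importer (1.89 ± 0.20). In the unprimed libraries alone, 4 of the 21 rose and 4 fell, beside 1859 higher and 1458 lower among all 11977 entries.

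Of the genes of glycolysis and lactate transport, 18 of 20 were tested, 10 rose and Slc16a1 fell, with a median of 0.54. Pfkfb3, which makes the activator of phosphofructokinase, had 147 and 156 FPKM after LPS and 8.36 FPKM after PBS (4.02 ± 0.21), and the glucose transporter Slc2a1 81.1 and 78.3 FPKM after LPS and 30.2 FPKM after PBS (1.37 ± 0.12). The hexokinases Hk3 and Hk1 rose by 2.10 ± 0.20 and 1.90 ± 0.12. The count was 6 in the unprimed libraries alone and 15 with both PBS libraries as the control group. Hif1a, the hypoxia-inducible factor, had 28.7 and 26.5 FPKM after LPS and 20.3 FPKM after PBS and did not pass (0.42 ± 0.20, adjusted p = 0.11). Beside 22.9% higher and 20.6% lower among all tested entries, 3 of 16 hypoxia targets outside glycolysis rose and 3 fell. The lower count was 0 without LPS library 2 and 1 where 5 FPKM were required in 2 libraries. Of 27 genes of the tricarboxylic acid cycle none rose and 6 fell, a share near the 20.6% of all entries that were lower. The isocitrate dehydrogenases were among them: Idh1, the cytosolic enzyme, had 21.8 and 16.3 FPKM after LPS and 66.0 FPKM after PBS (-1.75 ± 0.18), and the mitochondrial Idh3a and Idh2 changed by -1.02 ± 0.19 and -1.01 ± 0.21. Of 24 tested respiratory chain genes 3 rose, with 1.61 ± 0.25 for Cycs, the cytochrome c gene. This became 9 with both PBS libraries as control group.

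Transcription factors of the myeloid lineage rose in 11 and fell in 2 of 17 tested members of 20 listed. Cebpa, a factor of granulocyte and monocyte development, had 1.60 and 1.16 FPKM after LPS, against 29.2 and 76.1 FPKM in the PBS libraries of 6 h and 2 h (-3.67 ± 0.19, adjusted p = 2.44e-07), while its relative Cebpb rose by 2.75 ± 0.31. Spi1, the lineage factor PU.1, had 545 and 584 FPKM after LPS and 172 FPKM after PBS (1.70 ± 0.14). Batf2 rose by 5.67 ± 0.31. Of the genes of resident and alternatively activated macrophages, 25 of 30 were tested, 3 rose and 6 fell. Of all tested entries 22.9% were higher and 20.6% lower, so the share of this list that fell was near that of all entries. With both PBS libraries as control group 11 of the 25 were lower. Gpr34, a lysophosphatidylserine receptor, changed by -3.27 ± 0.35 and Tgfbr1, a receptor for TGF-beta, by -2.03 ± 0.30. Axl, a receptor for apoptotic cells, rose by 2.54 ± 0.14 and the scavenger receptor Msr1 by 2.21 ± 0.15. Mrc1, the mannose receptor, had 129 and 109 FPKM after LPS and 145 FPKM after PBS and did not pass (-0.30 ± 0.19, adjusted p = 0.241).

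Housekeeping, early-response and stress lists had medians between -0.08 and 0.21. Among all tested entries 22.9% were higher and 20.6% lower, and the shares of the early-response and stress lists lay near or under these. None of 15 tested ribosomal protein genes passed, with a median of -0.01. Of 19 immediate-early genes, which answer signals without new protein synthesis, 4 rose, led by Junb (2.67 ± 0.27), and 3 fell, among them Nr4a1 (-1.22 ± 0.26) and Myc (-0.97 ± 0.22). Of 18 genes of the ATF4 and ER stress responses 4 rose and 3 fell, with none higher and 1 lower in the unprimed libraries alone, and 1 lower without LPS library 2. Lysosomal genes rose in 11 and fell in 2 of 25 tested, with a median of 0.14. Ctsc, the protease cathepsin C, rose by 3.03 ± 0.17, and Atp6v0d2, a subunit of the proton pump, changed by -2.16 ± 0.35.

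Other genes among the 12 largest decreases have roles in signalling and metabolism. Pdxk, pyridoxal kinase, which activates vitamin B6, had 4.18 and 2.21 FPKM after LPS and 61.5 FPKM after PBS (-3.94 ± 0.28). Rasgrp3, an exchange factor for Ras, changed by -3.51 ± 0.26, Gcnt1, a glycosyltransferase of O-glycans, by -3.47 ± 0.25, Cdca7l by -3.53 ± 0.22 and Nptx1 by -3.81 ± 0.28. Gm24853, a short RNA, was listed at 0 in both LPS libraries and had 16.2 and 14.8 FPKM in the PBS libraries of 6 h and 2 h. In transcripts this short, few fragments make a large FPKM.

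The response at 6 h was set against that at 2 h in the same unprimed cells, each against the PBS library of its own time. At 2 h, 1134 entries (9.47%) were higher and 765 (6.39%) lower than after PBS. Of the 2738 entries higher at 6 h, 773 (28.2%) were also higher at 2 h, and these were 68.2% of those higher at 2 h. Another 1870 were not called at 2 h and 95 were lower then. In the test of the difference between the responses, the log2 fold change was higher at 6 h for 1660 entries (13.9%) and lower for 1402 (11.7%). These counts were 569 and 271 in the unprimed libraries alone, and 2740 and 2991 with both PBS libraries as 1 control group, which removes the difference between the controls from the comparison.

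Interferon-related genes had the larger response at 6 h. The 6 h response was higher for 34 of 35 tested interferon-stimulated genes, 7 of 9 GTPases and 11 of 12 class I genes, and lower for none of them. Ms4a4c, an interferon-stimulated membrane protein, had 702 and 990.1 FPKM after LPS for 6 h and 6.38 and 3.98 FPKM after LPS for 2 h (difference of responses 8.17 ± 0.36, adjusted p = 8.39e-07). Ifi44 had 159 and 185 FPKM at 6 h and 1.78 and 1.91 FPKM at 2 h (6.26 ± 0.19). Outside the interferon group, Saa3 had 8838 and 7185 FPKM at 6 h and 434 and 124 FPKM at 2 h (6.42 ± 0.77, adjusted p = 0.00024), and Slco3a1, an organic anion transporter, 104 and 126 FPKM at 6 h and 0.792 and 0.840 FPKM at 2 h (6.24 ± 0.21). Effectors were higher at 6 h in 20 of 29 and lower in 2.

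Other genes responded more at 2 h. Tnfsf9, the ligand of the T cell receptor 4-1BB, had 13.6 and 15.8 FPKM after LPS for 6 h and 499 and 433 FPKM after LPS for 2 h (-6.28 ± 1.44, adjusted p = 0.00996). Cxcl1 had 1.12 and 0.712 FPKM at 6 h and 33.8 and 35.7 FPKM at 2 h (-4.09 ± 0.58, adjusted p = 0.00065), and Rnd1, a small GTPase, 5.50 and 4.03 FPKM at 6 h and 91.1 and 53.7 FPKM at 2 h (-3.78 ± 0.45). Ifnb1 had 4.47 and 8.17 FPKM at 6 h and 50.8 and 38.6 FPKM at 2 h (adjusted p of the difference of responses = 0.0141). Frmd6 had 1.37 and 1.02 FPKM at 6 h and 33.3 and 59.7 FPKM at 2 h (-3.83 ± 0.40). Tlr4, which did not pass at 6 h, had 3.20 and 5.43 FPKM after LPS for 2 h, against 14.02 FPKM after PBS for 2 h (-1.53 ± 0.29, adjusted p = 0.00487). Of 26 tested cytokines 9 had a higher and 3 a lower response at 6 h, and of 20 tested chemokines 9 and 3. Among all tested entries 13.9% had a higher and 11.7% a lower response at 6 h, so the lower counts were near that share. Decreases of sterol and cell cycle genes were larger at 6 h: the response was lower at 6 h for 15 of 22 sterol genes and 18 of 33 cell cycle genes, and Plau had 14.7 and 12.0 FPKM at 6 h and 264 and 317 FPKM at 2 h (-3.87 ± 0.39).

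**Figure D5:**
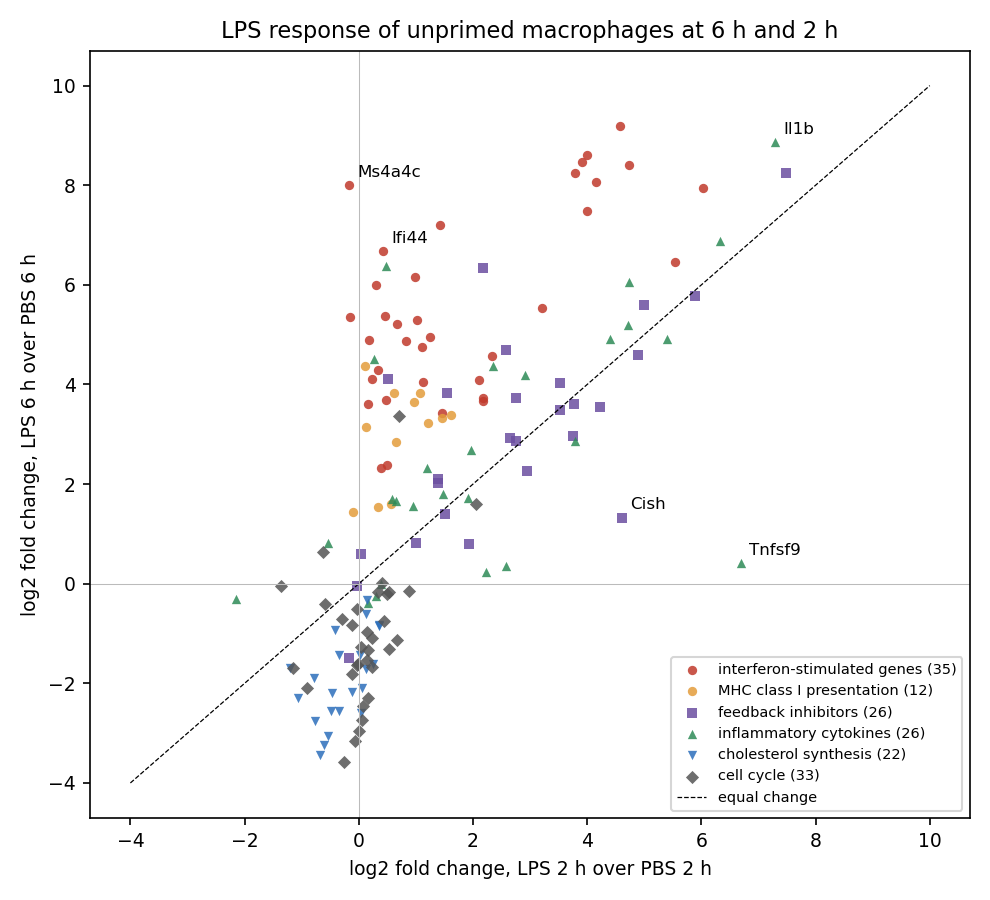
Log2 fold change of LPS over PBS at 6 h (y axis) against that at 2 h (x axis) in unprimed macrophages, 1 point per tested gene of 6 lists, with colour and symbol by list and the dashed line at equal change. The 34 interferon-stimulated genes with a higher response at 6 h lie above the line, Tnfsf9 lies far below it, and the 15 sterol genes with a lower response at 6 h lie below it.

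Macrophages primed with Poly I:C, a double-stranded RNA that is sensed by TLR3, gave a second setting for LPS at 6 h, with its own LPS and PBS libraries. The log2 fold change was higher in unprimed than in primed cells for 2001 entries (16.7%) and lower for 1524 (12.7%). All 35 tested interferon-stimulated genes, 12 of 12 class I genes and 7 of 9 GTPases had a higher response in unprimed cells. The chemokine Ccl5 had the largest difference although its level after LPS was lower in unprimed cells. It had 9700.3 and 11745 FPKM in unprimed and 26675 and 25422 FPKM in primed cells after LPS, while after PBS it had 6.21 FPKM in unprimed and 16665 and 18263 FPKM in primed cells (difference of responses 9.95 ± 0.40, adjusted p = 3.50e-07). Rsad2 had 3589 and 4116 FPKM in unprimed and 1149 and 977 FPKM in primed cells after LPS, and 5.58 FPKM in unprimed and 341 and 289 FPKM in primed cells after PBS (7.44 ± 0.24). For Gbp2 and Cmpk2 the differences were 7.43 ± 0.27 and 7.04 ± 0.33. Without LPS, Ccl5 and Rsad2 were far higher in primed than in unprimed cells.

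The CXCR2 ligands had the larger response in primed cells. Their values after LPS were far apart: Cxcl1 had 1.12 and 0.712 FPKM in unprimed and 149 and 136 FPKM in primed cells, and 0.135 FPKM in unprimed and 0.910 and 0.241 FPKM in primed cells after PBS (-5.79 ± 0.53, adjusted p = 3.41e-05). Cxcl2 had 30.9 and 28.7 FPKM in unprimed and 1053 and 1039 FPKM in primed cells after LPS (-5.45 ± 1.13, adjusted p = 0.00515), and Cxcl3 3.60 and 2.58 FPKM in unprimed and 203 and 255 FPKM in primed cells (-5.32 ± 0.57). All 3 genes were thus higher in both primed LPS libraries than in both unprimed ones. Of 26 tested cytokines 6 had a higher and 8 a lower response in unprimed cells, beside 16.7% and 12.7% of all tested entries. The sterol synthesis genes had a lower response in unprimed cells for 16 of 22. The cell cycle genes had a lower response for 17 of 33 and a higher one for 4. For 2 examples, primed cells had levels as low without LPS. Sqle had 6.26 and 5.74 FPKM in unprimed cells after LPS, against 3.28 and 3.29 FPKM in primed cells after PBS. Mcm3 had 5.29 and 5.49 FPKM in unprimed cells after LPS, against 5.42 and 5.32 FPKM in primed cells after PBS.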

How the data were processed

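Polyadenylated RNA was sequenced with a stranded kit in paired reads of 76 bp, per the labels' protocols. The submitters' processing notes name TopHat2, Cufflinks and Cuffnorm, without versions or options. The deposited values are FPKM, which the authors scaled between libraries with Cuffnorm, with 1 line per gene entry. The notes name build mm9, but 33796 of 33853 single-gene entries overlapped the GRCm38 gene of the same name and 13336 had its exact ends, so coordinates are given as GRCm38. No counts are given, so depth is unknown and no counting interval was computed. The spacing of low values put the FPKM worth of 1 fragment within a 2.25-fold range over the 3 libraries compared and a 3.08-fold range over 14. In the 3 libraries, 12.2% to 14.6% of FPKM belonged to the 1859 unnamed entries, and 13.6% to 14.6% to the 1066 that name more than 1 gene. Of the tested entries, 498 share their symbol with another entry, and a list gene was read from the one with the highest mean. Genes with no entry of their own were not read from shared entries: of 722 list places, 582 were tested, 72 lay in shared entries, 63 were under the filter and 5 were not analysed here.

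Entries with a gene name and 1 FPKM or more in 2 or more libraries (11977, 832 of them with several names) were analysed as log2(FPKM + 1) with limma 3.58.1 in R 4.3.3. The model had 1 mean for each of 8 groups over all 14 libraries, with moderated variances and an intensity trend (6 residual and a median of 3.99 prior degrees of freedom), and calls were made at a 2-sided Benjamini-Hochberg adjusted p under 0.05. The 3 main comparisons were LPS against PBS at 6 h, its difference from 2 h, and its difference from Poly I:C-primed cells. LPS against PBS in unprimed cells at 2 h and in primed cells at 6 h were fitted in the same model. The procedure was tested on simulated data for LPS against PBS at 6 h alone. The simulation gave every group the same spread, so it could not test the spread of the single PBS library. Groups followed the labels.

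The gene lists and the genes named were chosen with earlier results of these data known. Named genes were the 12 largest changes each way, up to 4 called members of a list in each direction, a fixed set of LPS-response genes and the 6 largest differences each way between the responses. Some other members, mostly those that did not pass, are named after their values were seen. Promoters from RefSeq were searched as given in the text, and also for a sterol regulatory element (TCACNCCAC) and a cell cycle element (TTTGAA). The sterol element was found for 1 of 15 cholesterol synthesis genes (6.67%) and 99 of 8220 genes in all (1.2%). The cell cycle element was found for 7 of 27 cell cycle genes (25.9%) and 1069 of 8220 in all (13%). It was also found for 46 of 218 genes that rose at least 8-fold (21.1%). Alternatives were a pseudocount of 0.1, other filters, median-of-ratios scaling, no trend, unprimed libraries alone, other controls, single-gene entries, a replicate block and leaving out each LPS replicate. Python 3.11.15, numpy 2.4.6, pandas 2.3.3 and matplotlib 3.10.9 were used.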

Additional observations from a re-analysis of the deposited data

Results flagged for a closer look

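The groups hold 1 or 2 libraries, too few to test for an outlying library. The results below differed between 2 groups in the test of the difference itself, as differences of log2 fold changes.

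Between 6 h and 2 h in unprimed cells, the response was higher at 6 h for 1660 entries, with the largest differences for Ms4a4c (8.17), Saa3 (6.42), Gm23487 (6.41), Ifi44 (6.26), Slco3a1 (6.24) and Gm23611 (6.09). It was lower at 6 h for 1402 entries, led by Tnfsf9 (-6.28), Gm25960 (-4.94), Cxcl1 (-4.09), Plau (-3.87), Frmd6 (-3.83) and Rnd1 (-3.78).

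Between unprimed and Poly I:C-primed cells at 6 h, the response was higher in unprimed cells for 2001 entries, led by Ccl5 (9.95), Rsad2 (7.44), Gbp2 (7.43), Ms4a4c (7.43), Cmpk2 (7.04) and AW112010 (6.91). It was lower in unprimed cells for 1524 entries, led by mt-Ty (-13.00), Cxcl1 (-5.79), Cxcl2 (-5.45), Cxcl3 (-5.32), Rcl1 (-4.80) and Prkar2b (-4.43).

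Of these genes, 4 are short RNAs whose values rest on few libraries. The mitochondrial transfer RNA mt-Ty was listed at 0 in both LPS libraries of 6 h and had 415 FPKM in the PBS library of 6 h. Gm25960 was listed at 0 in both LPS libraries of 6 h and had 8.97 FPKM in the PBS library of 6 h, and Gm23487 had 116 and 60.9 FPKM after LPS for 6 h and was listed at 0 after PBS. Gm23611 had 11.2 and 7.08 FPKM after LPS for 6 h, was listed at 0 in the PBS library of 6 h and had 5.87 FPKM in that of 2 h. The part of fragment length and library in these values was not tested.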

How the results depend on the processing

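The counts of entries higher and lower after LPS at 6 h, 2738 and 2464, stayed within 1.5 times under the alternatives run, except for 1458 lower with the unprimed libraries alone (1859 higher). The replicate numbers were not used as pairs in the main model. The difference between the 2 LPS libraries of 6 h correlated at -0.19 to 0.02 with the replicate differences of other groups. Such values cannot settle whether the libraries were paired. With a replicate block the counts were 2637 and 2342, the difference from 2 h was higher for 1515 and lower for 1227, and the difference from primed cells for 1860 and 1413. Crossing the numbers at 2 h, chosen after seeing the data, gave 1700 and 1443 for the difference from 2 h. That difference moved to 569 higher and 271 lower with the unprimed libraries alone, so that the higher share was 67.7% and not 54.2%, and to 2740 and 2991 with both PBS libraries as 1 control group. Without 1 LPS replicate, the counts ran from 2275 to 2466 higher and 1941 to 2096 lower at 6 h, 1300 to 1534 and 993 to 1193 for the difference from 2 h, and 1553 to 1806 and 1147 to 1300 for that from primed cells. With the PBS library of 2 h as control, 2292 higher and 1924 lower calls were shared and 17 took the opposite direction. Of 203 named genes 194 were called, 167 kept direction and call under every alternative run and 33 lost the call in at least 1. Genes that reversed were Clec5a (0.0043 with both PBS libraries, 0.50 with that of 2 h) and, with that of 2 h, Dnajb9 (0.20) and Egln3 (0.40); the cause was not tested. Gm25960 (0) and mt-Ty (0) were listed at 0 in both groups with that control and so took no opposite direction. Among the list counts that moved by more than 1.5 times were lysosome (5 higher and 1 lower in the unprimed libraries alone), hypoxia targets (0 lower), tricarboxylic acid cycle (3 lower) and macrophage identity (0 lower) with those libraries, and inflammatory cytokines (3 lower with the PBS library of 2 h or both PBS libraries as control). With the PBS library of 2 h, 6 immediate-early genes, 4 myeloid transcription factors and 5 lysosomal genes were lower and 5 hypoxia targets higher. The scaling factors of the median-of-ratios alternative were 0.992 to 1.04. Some fits could not be made: the 2 h control gives no difference from 2 h, and the unprimed libraries alone none from primed cells. Unknown depth and 1 control library limit the calls of weak genes.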

Other observations

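Sets of effector and oxidase genes that act in 1 process are given here, all chosen after their values were seen. In nitric oxide synthesis, the arginine importer gene Slc7a2 had 57.3 and 64.7 FPKM after LPS and 2.09 FPKM after PBS (4.33 ± 0.22 on the log2 scale), Ass1, which regenerates arginine from citrulline, 140.4 and 146 FPKM after LPS and 10.4 FPKM after PBS (3.66 ± 0.23), and Gch1, the first enzyme of the cofactor tetrahydrobiopterin, 59.2 and 69.1 FPKM after LPS and 5.96 FPKM after PBS (3.22 ± 0.18). All 3 rose, as Nos2 did. Of the NADPH oxidase genes, Cybb, the membrane subunit that carries the electrons, had 719 and 635 FPKM after LPS and 83.5 FPKM after PBS (3.00 ± 0.29). The cytosolic subunit genes Ncf4 and Ncf1 rose by 1.30 ± 0.27 and 1.17 ± 0.13. Of the matrix proteases, Mmp13, a collagenase, had 691 and 951 FPKM after LPS and 6.33 FPKM after PBS (6.79 ± 0.22), Mmp14, a membrane-bound protease, 278 and 292 FPKM after LPS and 22.6 FPKM after PBS (3.60 ± 0.15), and Mmp9, a gelatinase, 4.65 and 2.88 FPKM after LPS and 0.942 FPKM after PBS (1.27 ± 0.41). These rose while Plau, another protease of the matrix, fell.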
